A study of Mus musculus with 4 samples.

Results

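The Sult2a genes encode cytosolic sulfotransferases that place a sulfate group on bile acids and hydroxysteroids. The 7 genes described here, Sult2a1 to Sult2a7, were taken by symbol from the deposited gene tables, and all 7 were found among the 33639 genes listed. They were selected on their measured expression levels in these same libraries, above all in the double knockout, so their levels and folds are a description and carry no test. Sult2a8, the remaining gene of the subfamily, was measured beside them but is not counted among the 7. The libraries came from the livers of 4 male mice, 1 per genotype: a global Cyp27a1 knockout (Cyp27a1 KO), a knockout labelled Cyp3a (Cyp3a KO), an animal carrying both deletions (DKO), and a wild type (WT). The genotype label names the deleted gene Cyp3a4, which is the human symbol, and mice have several Cyp3a genes instead. All mice received standard chow under a 12-hour light cycle and no other treatment, and the sources used here give neither strain nor age. The series asked how these deletions alter bile acid synthesis.

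Sulfation uses the donor PAPS, made from ATP and sulfate, and turns a hydrophobic bile acid into a more polar anion that is taken up less well by the gut and is lost more readily in faeces or urine. In mouse liver several Sult2a genes are known for being far higher in females than in males, while Sult2a8 is known as higher in males. Sult2a genes are also known as targets of nuclear receptors that sense bile acids, oxysterols and drugs, among them FXR, PXR, CAR and LXR. Cyp27a1 is a mitochondrial sterol hydroxylase of bile acid synthesis, and Cyp3a enzymes hydroxylate drugs, steroids and bile acid intermediates.

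The members resemble each other so closely that reads are hard to divide among them, which the following stretch of 60 coding bases shows. It was picked as the gap-free stretch whose identities to Sult2a1 come nearest to those of the whole coding sequences, and it runs from coding base 788 to 847 of Sult2a1. The sequences are GENCODE M21 transcripts (GRCm38, the mm10 build) of mouse chromosome 7, read 5′ to 3′ on the coding strand, and capitals mark bases that differ from Sult2a1.
Sult2a1: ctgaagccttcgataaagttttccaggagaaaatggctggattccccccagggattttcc
Sult2a2: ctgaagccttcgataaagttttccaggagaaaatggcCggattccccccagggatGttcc
Sult2a3: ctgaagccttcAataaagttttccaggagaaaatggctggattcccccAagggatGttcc
Sult2a6: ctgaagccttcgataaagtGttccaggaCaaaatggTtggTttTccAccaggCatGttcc
Sult2a7: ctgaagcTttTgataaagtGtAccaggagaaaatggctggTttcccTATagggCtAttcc
Sult2a8: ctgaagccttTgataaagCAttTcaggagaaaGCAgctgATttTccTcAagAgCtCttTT
In this stretch Sult2a4 and Sult2a5 are identical to Sult2a2, which differs from Sult2a1 at 2 bases. Sult2a6, Sult2a7 and Sult2a8 differ from Sult2a1 at 8, 10 and 17 bases. Over the aligned coding bases, gaps left out, identity to Sult2a1 was 97.9% for Sult2a2 (573 of 585 aligned bases, with 273 bases of Sult2a1 in gaps), 94.9% for Sult2a5, 94.1% for Sult2a4, 93.7% for Sult2a3, 89.7% for Sult2a6, 82.1% for Sult2a7 and 72.8% for Sult2a8. Of all 31-base words in the transcripts of a gene, the share found in no other annotated gene was 25.5% for Sult2a2, 44.4% for Sult2a1, 48.9% for Sult2a5, 54.0% for Sult2a4, 72.6% for Sult2a3 and 85.3% for Sult2a6. That share was 99.7% for Sult2a7 and 96.8% for Sult2a8, so a read from either of them is rarely ambiguous. The counts of Sult2a1, Sult2a2, Sult2a5, Sult2a3, Sult2a4 and Sult2a6 are uncertain one by one, and their sum is the more secure value.

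**Figure D1:**
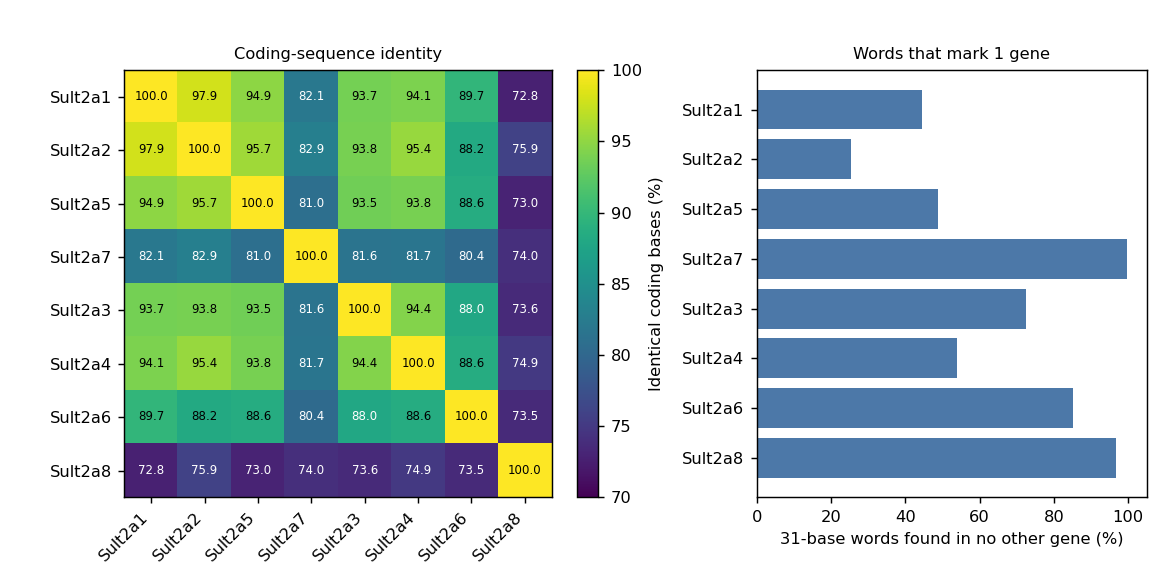
Left, identical bases (%) between the coding sequences of each pair of Sult2a genes, leaving out alignment gaps. Right, the share (%) of the 31-base words in the transcripts of each gene that no other annotated gene holds; Sult2a7 (99.7%) and Sult2a8 (96.8%) stand apart from Sult2a2 (25.5%).

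The deposited estimated counts totalled between 49745860 (WT) and 50378101 (Cyp3a KO) per library. Counts were scaled to CPM, counts relative to a library total of 1000000, with TMM factors, and 11743 genes averaged at least 1 CPM over the 4 libraries. A count of 1 was worth between 0.0185 CPM (DKO) and 0.0214 CPM (WT). Log2 folds are of CPM plus 0.5, which understates the folds of low genes, and fold ratios are of CPM itself. To be called higher or lower, a gene had to average at least 1 CPM, differ by 2-fold or more, and have an exact 95% count-ratio interval that left out 1. Intervals cover counting error only. A single mouse stands for each genotype, so differences lack a replicate check, p-values are not given, and the comparisons are between libraries, not genotypes. In whole liver, fewer cells of a type and less RNA per cell cannot be told apart. The targeted genes followed the labels: Cyp27a1 had 57.6 CPM in Cyp27a1 KO liver, 727 CPM in Cyp3a KO liver and 65.3 CPM in DKO liver, against 746 CPM in WT liver. Cyp3a11, the main Cyp3a gene of adult mouse liver, had 23706 CPM in Cyp27a1 KO liver, 0.160 CPM in Cyp3a KO liver and 4.76 CPM in DKO liver, against 8742 CPM in WT liver.

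Summed over the 7 members, the family stood at 54.7 CPM in Cyp27a1 KO liver, 68.7 CPM in Cyp3a KO liver and 1609 CPM in DKO liver, against 5.79 CPM in WT liver. Every knockout library was thus above WT, and the DKO was far above both single knockouts. The sum was 9.44-fold higher in Cyp27a1 KO liver than in WT liver (95% interval 8.33 to 10.7), 11.9-fold higher in Cyp3a KO liver (10.5 to 13.5) and 278-fold higher in DKO liver (247 to 314). Set against the single knockouts, the DKO sum was 23.4-fold that of the Cyp3a KO (22.6 to 24.2) and 29.4-fold that of the Cyp27a1 KO (28.3 to 30.6). In TPM, the length-corrected unit the authors deposited, the sum was 117 in Cyp27a1 KO liver, 138 in Cyp3a KO liver and 3497 in DKO liver, against 9.82 in WT liver. The sum joins 2 unlike patterns, that of Sult2a1, Sult2a2 and Sult2a5, which were high in DKO liver only, and that of Sult2a7, which was high in all 3 knockouts. Without Sult2a7, a sum chosen after its values were seen, the log2 fold against WT was -1.97 in Cyp27a1 KO liver and -3.06 in Cyp3a KO liver, so the direction in the single knockouts rests on Sult2a7 alone.

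**Figure D2:**
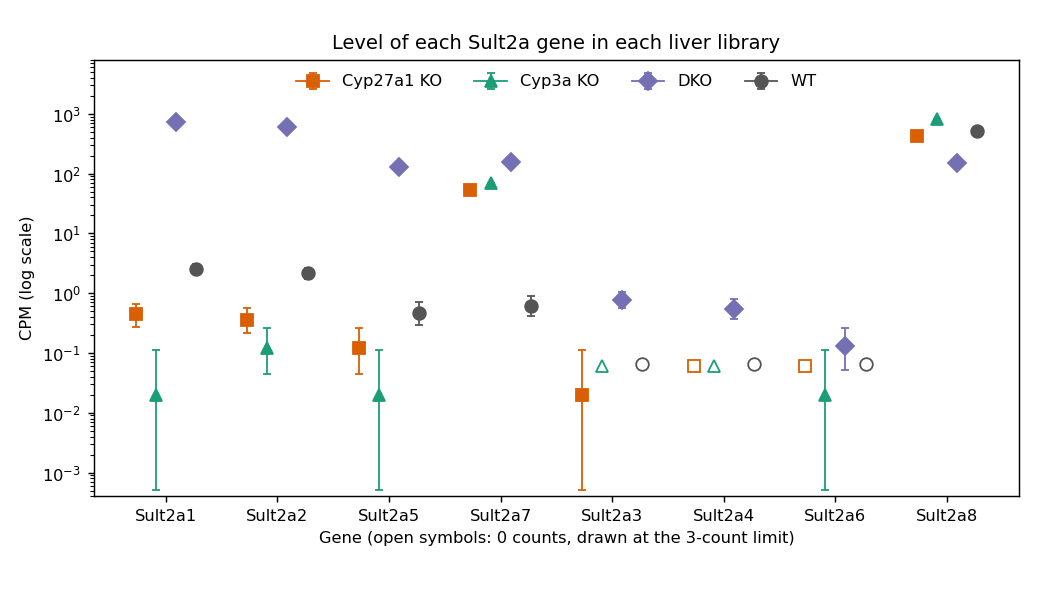
Level in CPM (log scale) of each Sult2a gene in Cyp27a1 KO liver, Cyp3a KO, DKO and WT libraries (1 mouse each). Bars are exact 95% Poisson intervals and cover counting error only, and open symbols are genes with 0 counts drawn at the limit of 3 counts. Sult2a1, Sult2a2 and Sult2a5 exceed 100 CPM in DKO liver only, Sult2a7 exceeds 50 CPM in each knockout, and Sult2a8 is lowest in DKO liver.

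Of the 7 members, 4 averaged at least 1 CPM and could be called (Sult2a1, Sult2a2, Sult2a5 and Sult2a7). Sult2a1, Sult2a2 and Sult2a5 passed that filter only through the DKO, so a difference there was bound to follow. All 4 were higher in DKO liver than in WT liver, where 6.0% of all genes tested were called higher and 4.02% lower. All 4 were also higher in DKO liver than in Cyp3a KO liver, with 4.02% of all genes higher and 2.70% lower, and higher than in Cyp27a1 KO liver, with 2.84% of all genes higher and 2.59% lower. In the Cyp27a1 KO against WT, 1 member was called higher and 2 lower, beside 2.44% and 1.36% of all genes. In the Cyp3a KO against WT, likewise 1 was called higher and 2 lower, beside 2.56% and 1.86% of all genes. The member higher in each single knockout was Sult2a7, and the lower members were Sult2a1 and Sult2a2. Under the rule, these lower members could be called only because the DKO carried them past the filter. Without that filter, 2 members were likewise lower in each single knockout. Since these contrasts served to choose the family, the shares of all genes are given as the setting of the counts and nothing is read from them.

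Sult2a1, the best studied dehydroepiandrosterone and bile acid sulfotransferase of the family (chromosome 7, 13796246 to 13837409, minus strand), had 22 counts in Cyp27a1 KO liver, 1 in Cyp3a KO liver and 39439 in DKO liver, against 119 in WT liver. In CPM this was 0.442 in Cyp27a1 KO liver, 0.0200 in Cyp3a KO liver and 728 in DKO liver, against 2.55 in WT liver. The DKO library alone held an appreciable level, 285-fold that of WT (238 to 344) and 1648-fold that of the Cyp27a1 KO (1088 to 2630.1). Against the single count in Cyp3a KO liver the ratio was 36454, with a counting interval of 6542 to 1439895. Both single knockouts lay below WT, by 5.78-fold in Cyp27a1 KO liver (3.64 to 9.57) and by 128-fold in Cyp3a KO liver (22.5 to 5089.7).

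Sult2a2, its nearest relative (13733505 to 13779636, plus strand), had 18 counts in Cyp27a1 KO liver, 6 in Cyp3a KO liver and 32219 in DKO liver, against 100 in WT liver. Its pattern over the 4 libraries matched that of Sult2a1: 595 CPM in DKO liver, against 2.14 CPM in WT liver, a ratio of 277 (228 to 341). It was 5.93-fold lower in Cyp27a1 KO liver than in WT liver (3.57 to 10.4) and 17.9-fold lower in Cyp3a KO liver (7.94 to 49.9). The annotated Sult2a2 transcript has 4 exons and 585 coding bases, against 6 exons and 858 coding bases for Sult2a1. Per length, Sult2a2 therefore came out above Sult2a1 in DKO liver, at 1599 TPM for Sult2a2 and 1292 TPM for Sult2a1, although it had fewer counts, and their order depends on that annotated length.

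Sult2a5 (13623967 to 13670807, plus strand) had 6 counts in Cyp27a1 KO liver, 1 in Cyp3a KO liver and 6907 in DKO liver, against 22 in WT liver. It stood at 128 CPM in DKO liver and 0.472 CPM in WT liver, a ratio of 270.2 (178 to 431). The single knockouts were again below WT, with 0.120 CPM in Cyp27a1 KO liver and 0.0200 CPM in Cyp3a KO liver, but both log2 folds, -0.65 and -0.90, fell short of 2-fold on the scale with 0.5 CPM added, so neither was called.

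With their counts added, Sult2a1, Sult2a2 and Sult2a5 gave 46 counts in Cyp27a1 KO liver, 8 in Cyp3a KO liver and 78565 in DKO liver, against 241 in WT liver. The summed level was 281-fold higher in DKO liver than in WT liver (247 to 320), 5.60-fold lower in Cyp27a1 KO liver than in WT liver (4.07 to 7.85) and 32.4-fold lower in Cyp3a KO liver than in WT liver (16.2 to 75.8). In the DKO the 3 genes ranked among abundant liver transcripts: by TPM, Sult2a2 was 81st, Sult2a1 was 97th and Sult2a5 was 596th of 18725 genes above 0.

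The WT values of these genes stood in a nearly constant proportion to the DKO values. The WT count was 0.302% of the DKO count for Sult2a1, 0.310% for Sult2a2, 0.319% for Sult2a5 and 0.340% for Sult2a7. Among 1318 genes with at least 5000 counts in DKO liver, where the median WT count was 82.1% of the DKO count, these 4 held places 2 to 5 from the lowest. The members were chosen on these same levels and the ranked genes on their DKO counts. Low places of the members thus restate that choice, and nothing is read from them. Place 1 was held by Cyp2b9, a steroid hydroxylase known as female-predominant in mouse liver, at 0.274%. AW822252 (0.397%) followed, at place 6. In the Cyp27a1 KO, Sult2a1, Sult2a2, Sult2a5 and Cyp2b9 were again the lowest 4, at 0.0557%, 0.0566%, 0.0842% and 0.0893% of the DKO count. In the Cyp3a KO the share was 0.00317% for Sult2a1, 0.0178% for Sult2a2 and 0.0145% for Sult2a5. Whether the few WT counts of these genes came from the WT liver was not tested, and every fold of these genes against WT, up or down, rests on them.

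Sult2a7 (14465051 to 14494230, minus strand) followed a different course. It had 2676 counts in Cyp27a1 KO liver, 3432 in Cyp3a KO liver and 8519 in DKO liver, against 29 in WT liver. In CPM this was 53.7 in Cyp27a1 KO liver, 68.5 in Cyp3a KO liver and 157 in DKO liver, against 0.622 in WT liver. Each deletion alone thus came with a level far above that of WT, and the DKO exceeded both single knockouts by a further 2- to 3-fold. The ratios to WT were 86.4 in Cyp27a1 KO liver (60.01 to 129), 110.2 in Cyp3a KO liver (76.6 to 165) and 253 in DKO liver (176 to 378). The DKO level was 2.29-fold that of the Cyp3a KO (2.20 to 2.39) and 2.93-fold that of the Cyp27a1 KO (2.80 to 3.06). By TPM, Sult2a7 was the 980th gene in Cyp27a1 KO liver, the 784th in Cyp3a KO liver and the 344th in DKO liver, against the 10495th in WT liver.

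The makeup of the family changed accordingly. Sult2a7 supplied 98.5% of the family's TPM in Cyp27a1 KO liver, 99.7% in Cyp3a KO liver and 10.99% in DKO liver, against 11.9% in WT liver. Sult2a2 supplied 45.7% and Sult2a1 supplied 36.9% in DKO liver, against 45.7% and 35.9% in WT liver. Sult2a5 supplied 6.27% in DKO liver and 6.45% in WT liver. The DKO and WT libraries, 278-fold apart in the summed CPM, thus had nearly the same makeup, and the single knockouts had another. The likeness of DKO and WT restates the nearly constant proportion of their counts given above. Whether the WT counts came from the WT liver was not tested, so the WT makeup may not be that of the WT liver.

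**Figure D3:**
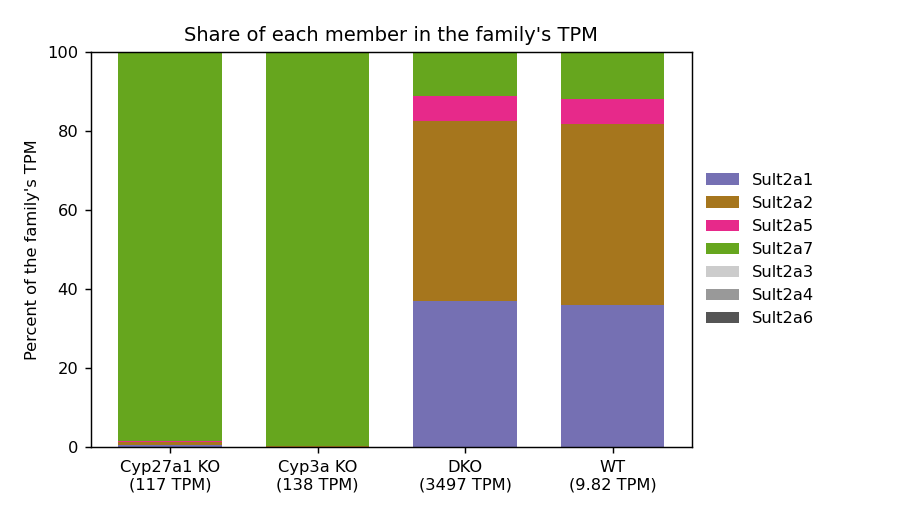
Share (%) of each member in the family's summed TPM in Cyp27a1 KO liver, Cyp3a KO, DKO and WT libraries, with the sum under each bar. Sult2a7 makes up 98.5% and 99.7% of the sum in the single knockouts, 10.99% in DKO liver and 11.9% in WT liver; Sult2a3, Sult2a4 and Sult2a6 are too small to be seen.

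Sult2a3, Sult2a4 and Sult2a6, the members that averaged under 1 CPM, had most of their few counts in DKO liver. Sult2a3 (14067446 to 14123044, minus strand) had 1 count in Cyp27a1 KO liver, 0 in Cyp3a KO liver and 42 in DKO liver, against 0 in WT liver. Sult2a4 (13909676 to 13989607, minus strand) had 30 counts in DKO liver and 0 in the other libraries, including WT. Taking 0 counts as at most 3 per library, Sult2a3 was at least 12.0-fold higher and Sult2a4 at least 8.61-fold higher in DKO liver than in WT liver. The exact 95% intervals of their count ratios, which allow for chance in both libraries, have lower limits of 9.38 for Sult2a3 and 6.58 for Sult2a4. Sult2a6 (14222403 to 14254870, minus strand) had 1 count in Cyp3a KO liver, 7 in DKO liver and 0 in Cyp27a1 KO liver, against 0 in WT liver. Together the 3 genes reached 79 counts in DKO liver, beside 78565 for Sult2a1, Sult2a2 and Sult2a5. Sult2a4 shares 28.4% of its 31-base words with Sult2a5, whereas Sult2a6 shares at most 6.65% with any 1 gene. Whether reads of those abundant genes were assigned to them was not tested.

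The same holds for annotated but noncoding sequence of the cluster. Of 4 Sult2a pseudogenes, Sult2a-ps1 had 42.7 counts, Sult2a-ps2 had 23.2 and Sult2a-ps3 had 2 in DKO liver, Sult2a-ps4 had 0, and all 4 had 0 counts in the other libraries, WT included. Processed pseudogenes of other genes (Zbed4, Kat6b and Rpap3) lie on the same strand inside introns of the members. Zbed4-ps1 in an intron of Sult2a5 had 240 counts in DKO liver and 0 in every other library. Zbed4-ps2 in an intron of Sult2a2 (44.9 counts), Kat6b-ps2 in an intron of Sult2a1 (38.7 counts) and Kat6b-ps1 in Sult2a5 (6.06 counts) had counts in DKO liver and 0 elsewhere too. In genes that stayed low, Zbed4-ps3 in Sult2a4 had 1.09 counts in Cyp3a KO liver and 0 in Cyp27a1 KO liver and DKO, against 2.11 in WT liver. Rpap3-ps2 in Sult2a6 had between 1.06 and 3.10 counts in every library. Whether the counts of these pseudogenes are reads from the introns, or from their parent genes or other copies, was not tested.

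Sult2a8, a bile acid sulfotransferase of mouse liver known as higher in males, moved the other way in DKO liver. It stood at 427 CPM in Cyp27a1 KO liver, 803 CPM in Cyp3a KO liver and 151 CPM in DKO liver, against 509 CPM in WT liver. It was the most abundant Sult2a gene in WT liver, at 378 TPM, and was 3.38-fold lower in DKO liver than in WT liver (3.29 to 3.47), which was called. It was 1.58-fold higher in Cyp3a KO liver than in WT liver (1.55 to 1.60) and 1.19-fold lower in Cyp27a1 KO liver than in WT liver (1.17 to 1.21), and neither reached 2-fold. The DKO level was 5.33-fold below that of the Cyp3a KO (5.20 to 5.46) and 2.83-fold below that of the Cyp27a1 KO (2.76 to 2.91), both called. With Sult2a8 added to the 7 members, the subfamily summed to 482 CPM in Cyp27a1 KO liver, 872 CPM in Cyp3a KO liver and 1759.8 CPM in DKO liver, against 515 CPM in WT liver. The 278-fold difference of the 7 members between DKO and WT thereby became 3.42-fold (3.37 to 3.47) for the whole subfamily, as Sult2a8 held 509 of the 515 CPM in WT liver. CPM gives more weight to Sult2a8, whose annotated transcript used here has 2097 bases, against 741 to 1046 for the 7 members. Per length the subfamily summed to 489 TPM in Cyp27a1 KO liver, 769 TPM in Cyp3a KO liver and 3653 TPM in DKO liver, against 388 TPM in WT liver, a log2 fold of 3.23 in DKO liver over WT in place of 1.77 in CPM. In Cyp27a1 KO liver the log2 fold of this sum over WT was 0.33 in TPM and -0.10 in CPM, so its direction depends on the unit.

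All 8 genes lie within 870 kb of chromosome 7 (13623967 to 14494230, GRCm38), in the order Sult2a5, Sult2a2, Sult2a1, Sult2a4, Sult2a3, Sult2a6, Sult2a8, Sult2a7. The 3 genes high in DKO liver only are adjacent at one end, and Sult2a7 and Sult2a8, which moved in opposite directions in DKO liver, are neighbours at the other. Of 65 other annotated genes in the cluster or within 500 kb of it, some absent from the tables used here, 2 averaged at least 1 CPM. These were Zbed4-ps1, described above, and Lig1, a DNA ligase gene outside the cluster, which was higher in DKO liver than in WT liver by 1.40 on the log2 scale. The flanks of the cluster hold chiefly receptor, homeobox and pseudogene families that had few or no counts in liver.

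**Figure D4:**
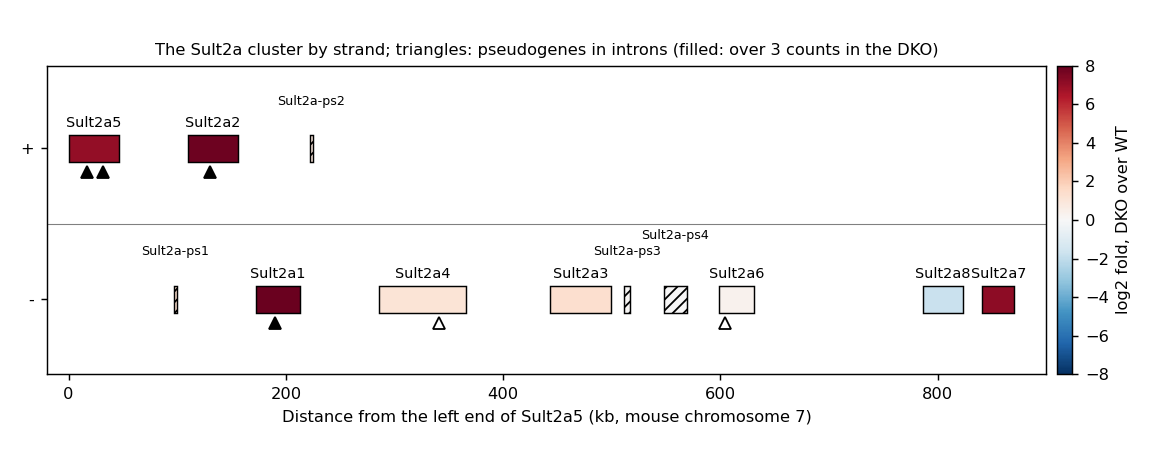
Position (kb from the left end of Sult2a5 on chromosome 7) and strand of the Sult2a genes, coloured by the log2 fold of CPM plus 0.5 in DKO liver over WT; hatched boxes are Sult2a pseudogenes. Triangles are other pseudogenes inside introns, filled where they had more than 3 counts in DKO liver, as the 4 in Sult2a5, Sult2a2 and Sult2a1 did.

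Start-site sequence was on hand for 4 of the 7 members and for Sult2a8, but not for Sult2a1, Sult2a2 or Sult2a7. The stretches of 40 bases below come from the RefSeq promoter windows (GRCm38.p6, 250 bases before to 50 after the start), lie upstream of the start and are read 5′ to 3′ on the strand of the gene. They are shown because Sult2a5, high in DKO liver, can be set against 3 members that stayed low. Capitals mark matches on either strand to GGTCA or AGTTCA, the building blocks of nuclear receptor sites. An inverted repeat of this kind with no spacer is known from the rat Sult2a promoter as a site of bile acid and xenobiotic receptors.
Sult2a5, chr7:13623796-13623835, plus strand: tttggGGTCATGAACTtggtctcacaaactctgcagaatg
Sult2a6, chr7:14255046-14255085, minus strand: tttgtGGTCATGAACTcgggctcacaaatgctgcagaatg
Sult2a4, chr7:13989799-13989838, minus strand: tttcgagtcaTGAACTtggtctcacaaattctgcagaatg
Sult2a3, chr7:14123203-14123242, minus strand: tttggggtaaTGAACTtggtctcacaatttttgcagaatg
Sult2a5, the gene with 6907 counts in DKO liver, and Sult2a6, with 7, both hold the facing pair GGTCATGAACT, while Sult2a4 and Sult2a3 hold only one side of it. Among 32851 promoter windows of this length, 40.5% held GGTCA or its reverse complement, 14.0% held AGTTCA or its reverse complement, and 7 windows (0.0213%) held the whole pair on either strand, these 2 included. Each pair also counts once for each of its parts. The letters were chosen after the windows had been seen, and a match describes the sequence and is no evidence that a factor binds there.

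The members with counts in all libraries departed from the sum of the single deletions in opposite directions. For Sult2a1 the log2 folds against WT were -1.70 in Cyp27a1 KO liver, -2.55 in Cyp3a KO liver and 7.90 in DKO liver, which lay 12.15 above the sum of the singles. For Sult2a2 they were -1.62, -2.09 and 7.81 in the same order, 11.53 above that sum, and for Sult2a5 the DKO lay 8.59 above it. For Sult2a7 they were 5.60, 5.94 and 7.14, so the DKO minus the sum of the singles was -4.40, although the DKO was above each of them. For Sult2a8 that difference was -2.16. Its size depends on the pseudocount for low genes: for Sult2a1 it was 14.86 with 0.1 CPM and 9.40 with 2 CPM, and for Sult2a5 it was 11.43 and 6.22. These 3 contrasts share the WT library, and a departure has no replicate check.

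Genes outside the family with the most similar course were sought by the distance between their 3 log2 folds against WT and those of a member, over the 11743 measured genes and 4 libraries. Nearest to the family sum were Gsta1 (distance 2.14), Gstm3 (2.40), the predicted gene Gm3776 (2.62), Atp6v0d2 (2.75), a subunit of the vacuolar proton pump, and Cyp2c55 (2.87). Because the sum joins 2 patterns, the search was repeated for single members, a step added after their values were seen. Among the nearest to Sult2a1 were Cyp2b9 (2.66) and Cyp2b13 (3.41), both female-predominant cytochromes P450, then the pseudogene Rpl10-ps1 (3.71) and, farther off, Sult1e1 (5.08), the oestrogen sulfotransferase. Cyp2b9 had 0.1004 CPM in Cyp27a1 KO liver, 0.0799 CPM in Cyp3a KO liver and 93.2 CPM in DKO liver, against 0.300 CPM in WT liver. Nearest to Sult2a7 were Cyp2c55 (1.15) and Gstm3 (1.31), a drug-inducible cytochrome P450 and a glutathione transferase, then Gsta1 (3.57), Nebl (3.84) and Gm3776 (4.38). Cyp2c55 had 243 CPM in Cyp27a1 KO liver, 455 CPM in Cyp3a KO liver and 1016 CPM in DKO liver, against 9.37 CPM in WT liver, and so was raised in all 3 knockouts as Sult2a7 was.

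**Figure D5:**
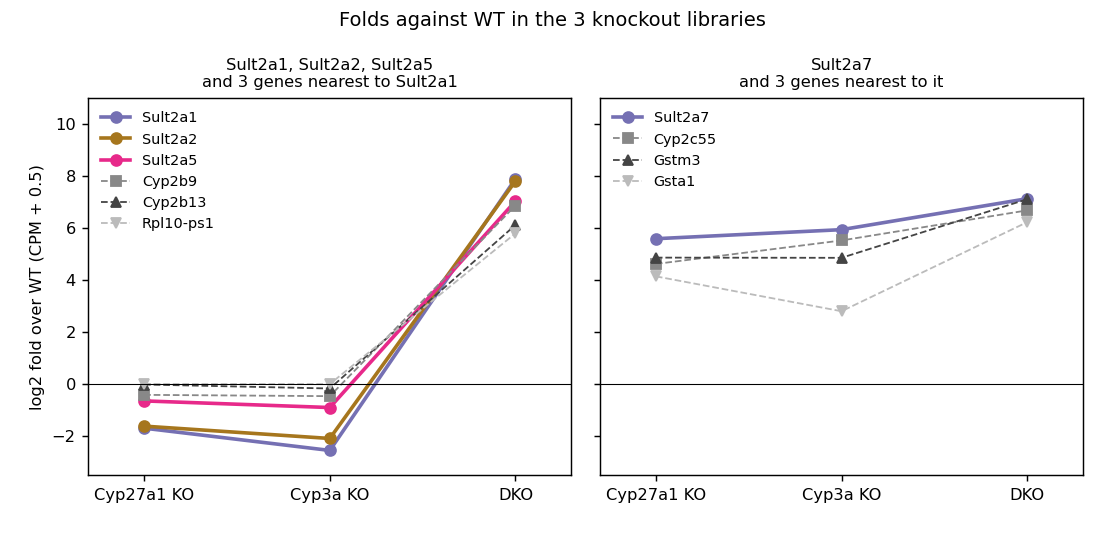
Log2 fold over WT (CPM plus 0.5) in Cyp27a1 KO liver, Cyp3a KO and DKO libraries, left for Sult2a1, Sult2a2, Sult2a5 and the 3 genes nearest to Sult2a1, right for Sult2a7 and the 3 genes nearest to it. The genes on the left lie at or below 0 in both single knockouts and above 5 in DKO liver, while those on the right lie above 2 in each library.

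Genes that serve sulfation showed smaller differences. In DKO liver against WT, 6.0% of all genes tested were called higher and 4.02% lower, which is the setting of the counts below. Of 7 measured genes for the supply and removal of PAPS, 1 was called higher in DKO liver than in WT liver and 0 lower, with a median log2 fold of 0.29 against -0.01 over all genes. It was Papss2, the liver PAPS synthase, with 342 CPM in Cyp27a1 KO liver, 404 CPM in Cyp3a KO liver and 555 CPM in DKO liver, against 170.0 CPM in WT liver, and it was called higher in all 3 knockouts. Its log2 folds over WT were 1.01, 1.25 and 1.70 in that order, so unlike Sult2a1 it was raised in the single knockouts as well. Papss1, the other synthase, had log2 folds between 0.14 and 0.47. Of 6 measured sulfotransferases outside the Sult2a subfamily, 2 were higher and 1 lower in DKO liver than in WT liver, with a median of 0.51. Sult1e1 had 3.07 CPM in Cyp27a1 KO liver, 0.0999 CPM in Cyp3a KO liver and 27.1 CPM in DKO liver, against 0.450 CPM in WT liver. Sult1b1, which sulfates thyroid hormones, was higher by 1.26 and Sult5a1 was lower by 2.23 on the log2 scale in DKO liver. Sult3a1, a female-predominant sulfotransferase under the filter, had 2.82 CPM in DKO liver and at most 1 count in any other library. Among 6 measured sulfatases and their activators, 1 was lower in DKO liver than in WT liver and 0 higher: arylsulfatase A (Arsa), with 10.7 CPM in DKO liver and 39.9 CPM in WT liver.

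Of 10 measured carriers of bile acids and sulfate conjugates, 3 were higher and 1 lower in DKO liver than in WT liver, with a median log2 fold of 0.43. Over all genes, 6.0% were called higher and 4.02% lower in that comparison. The basolateral exporters Abcc4 and Abcc3 were higher by 2.50 and 1.97 and the uptake carrier Slco1a4 by 2.49. These differences were not particular to the DKO. In Cyp27a1 KO liver the log2 folds over WT were 2.63 for Abcc4, 1.56 for Abcc3 and 1.60 for Slco1a4. In Cyp3a KO liver they were 0.06, 1.81 and 1.77 in the same order. The male-predominant uptake carrier Slco1a1 had 78.2 CPM in Cyp27a1 KO liver, 478 CPM in Cyp3a KO liver and 1.94 CPM in DKO liver, against 341 CPM in WT liver. Of 11 measured nuclear receptors linked to Sult2a regulation, 0 were called in DKO liver against WT, with log2 folds from -0.83 (Rora) to 0.56 (Nr0b2). PXR (Nr1i2) had 85.1 CPM in Cyp27a1 KO liver, 92.8 CPM in Cyp3a KO liver and 103 CPM in DKO liver, against 93.0 CPM in WT liver, and CAR (Nr1i3) had 92.2, 116 and 114 CPM in those knockouts, against 109 CPM in WT liver. Nr0b2 (SHP), the FXR target that represses bile acid synthesis, was lower in Cyp27a1 KO liver (7.87 CPM) and higher in Cyp3a KO liver (46.3 CPM) than in WT liver (16.3 CPM), and both were called.

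Leaving out Cyp3a genes, 19 known targets of PXR and CAR were measured, of which 14 were higher than in WT liver in Cyp27a1 KO liver, 13 in Cyp3a KO liver and 17 in DKO liver, and 0 were lower in any. Their median log2 fold was 1.59 in Cyp27a1 KO liver, 1.47 in Cyp3a KO liver and 2.50 in DKO liver, against a median over all genes between -0.01 and 0.01. Over all genes, 2.44%, 2.56% and 6.0% were called higher than in WT liver, in the same order. Gstm3 had 1512 CPM in Cyp27a1 KO liver, 1504 CPM in Cyp3a KO liver and 7182 CPM in DKO liver, against 51.3 CPM in WT liver. The list shares Gstm3, Gsta1 and Cyp2c55 with the genes nearest to Sult2a7, and Papss2, Abcc3, Abcc4 and Slco1a4 with the lists above.

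Many genes known for a sex difference in mouse liver differed in DKO liver too. Against WT, 2.44% of all genes were called higher and 1.36% lower in Cyp27a1 KO liver, and 2.56% and 1.86% in Cyp3a KO liver. In DKO liver the shares of all genes were 6.0% and 4.02%. Of 19 measured male-biased genes, 8 were lower than in WT liver in Cyp27a1 KO liver, 2 in Cyp3a KO liver and 15 in DKO liver, with median log2 folds of -0.90, -0.08 and -3.87 in that order. In each single knockout 2 of the 19 were higher than in WT liver (Moxd1 and Cyp4a12b with the Cyp27a1 deletion, Moxd1 and Hsd3b5 with the Cyp3a deletion), and in DKO liver 0 were. The urinary protein gene Mup7 had 3649.6 CPM in Cyp27a1 KO liver, 20285 CPM in Cyp3a KO liver and 17.2 CPM in DKO liver, against 28047 CPM in WT liver. Elovl3, a fatty acid elongase, had 428 CPM in Cyp27a1 KO liver, 361 CPM in Cyp3a KO liver and 4.78 CPM in DKO liver, against 802 CPM in WT liver. Of 11 measured female-biased genes, 7 were higher and 4 lower in DKO liver than in WT liver, with a median of 3.52. Against WT, 6 were higher and 1 lower in Cyp27a1 KO liver (median 1.25), and 2 were higher and 5 lower in Cyp3a KO liver (median -0.46), where 3 of the 5 are Cyp3a genes. The higher ones included Cyp2b9 and Cyp2b13, with log2 folds of 6.87 and 6.12. Of the 4 lower ones, Cyp3a16 and Cyp3a44 belong to the Cyp3a family, Cyp17a1 is a steroid hydroxylase and lyase, and Acot3 is a thioesterase. Another Cyp3a gene of the list, Cyp3a41a, was called higher, with 5.39 CPM in DKO liver against 2.12 CPM in WT liver. In Cyp3a KO liver Cyp3a41a had 0.0999 CPM. Female-biased genes did not all follow Sult2a1: Cyp2c40 was highest in Cyp3a KO liver, at 161 CPM, with 36.5 CPM in Cyp27a1 KO liver and 80.9 CPM in DKO liver, against 6.58 CPM in WT liver. All mice were labelled male. Of 13 measured genes of the growth hormone axis, which sets the sex pattern of liver genes, 1 was higher and 1 lower in DKO liver than in WT liver, a share near the 6.0% and 4.02% of all genes. These were the corepressor gene Trim24, higher by 1.07, and Igf1, the hormone's main hepatic product, with a log2 fold of -1.09. In Cyp27a1 KO liver 3 were higher than in WT liver, namely Socs2 (log2 fold 2.06), Onecut1 (1.78) and Cish (1.28). In Cyp3a KO liver the repressor gene Bcl6 was higher (3.10) and Cish lower (-2.11).

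Among 16 measured bile acid synthesis genes, 2 were higher and 1 lower in DKO liver than in WT liver, beside 6.0% and 4.02% of all genes. Cyp7a1, which starts the classic pathway and limits its rate, had 362 CPM in Cyp27a1 KO liver, 41.3 CPM in Cyp3a KO liver and 173 CPM in DKO liver, against 22.4 CPM in WT liver. Sult2a1 was at 0.442 CPM in Cyp27a1 KO liver, where Cyp7a1 was highest, and a link between these genes was not tested. Akr1d1, the steroid reductase, was higher in DKO liver by 2.24. Cyp7b1, the oxysterol hydroxylase and a male-biased gene, had 15.4 CPM in DKO liver and 231 CPM in WT liver.

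The libraries carried liver markers throughout. The 6 hepatocyte markers summed to between 61925 CPM (Cyp27a1 KO) and 87795 CPM (DKO) in the knockouts, against 101329.8 CPM in WT liver, and 1 of 6, Ttr, was called lower in DKO liver. The 6 Kupffer cell markers summed to 178 CPM in Cyp27a1 KO liver, 113 CPM in Cyp3a KO liver and 291 CPM in DKO liver, against 169.5 CPM in WT liver, and 2 of 6 (Adgre1 and Cd5l) were called higher in DKO liver than in WT liver. Against the Cyp3a KO 5 of 6 were higher in DKO liver (median log2 fold 1.68), and against the Cyp27a1 KO 3 of 6 (0.92). Over all genes, 6.0% were called higher and 4.02% lower in DKO liver against WT. Against the Cyp3a KO 4.02% were higher, and against the Cyp27a1 KO 2.84%. The part of Kupffer cells in the differences of the members was not tested. Among 6 markers of adrenal cortex and intestine, tissues that also express sulfotransferases, Fabp2 alone averaged at least 1 CPM. Cyp11b2 was at 0 in every library, Lct had 0 counts in DKO liver, and the summed level of the 6 was 25.3 CPM in DKO liver against 22.9 CPM in WT liver. The sums of 5 cholangiocyte, 5 endothelial and 5 stellate markers were 37.2, 152 and 155 CPM in DKO liver, against 43.1, 166 and 193 CPM in WT liver.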

How the data were processed

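Per the labels' protocols, livers of 4 male mice (1 per genotype) went through RNAlater, RNeasy extraction and TruSeq RNA v2 library preparation. This kit does not mark strand, so antisense and overlapping genes are not separated. The mm10 build, kallisto 0.43.1, HISAT2 2.0.5 and Trimmomatic 0.33 appear, with no roles, in the submitters' processing notes. The annotation release is not given in the sources used here. Per gene, the authors deposited estimated counts, 57.5% to 57.9% of them whole in a library, which were rounded before use. TPM per gene, likewise deposited by the authors, was used for comparing genes per length. 1 row that names no gene had 0 counts and was left out.

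Counts were scaled with TMM factors of 0.996 (Cyp27a1 KO), 0.994 (Cyp3a KO), 1.08 (DKO) and 0.937 (WT) (edgeR 4.0.16, R 4.3.3). Folds used a pseudocount of 0.5 CPM. Count ratios have exact 95% conditional binomial (Clopper-Pearson) intervals and levels exact Poisson ones, which cover counting error only, as PCR duplicates of a molecule cannot be recognised without identifiers. Zero counts were bounded by 3 counts per library. The calling rule, run over all genes, was checked on simulated data with counting error only. Known folds were set in genes of at least 5 CPM, so the check covers neither differences between mice nor folds of lower genes. The named genes are the 7 members, Sult2a8, the 5 genes nearest to the family sum, Cyp27a1, Cyp3a11 and up to 4 genes per list with the largest folds in the DKO; others were named after their values were seen. 1 gene that these rules name is not reported here. The members, the gene lists and the rules were chosen with earlier results of these data known. Alternatives were library-total and median-of-ratios scaling (DESeq2 1.42.0), TPM in place of counts, pseudocounts of 0.1 and 2, no filter, a filter of 5 CPM, a 4-fold rule and no counting interval. Coordinates and transcripts are from GENCODE M21, promoters from RefSeq. Alignments used Biopython 1.88 in Python 3.11.15.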

Additional observations from a re-analysis of the deposited data

Results flagged for a closer look

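In the 4 libraries, loss of one gene went with opposite differences depending on whether the other was present; with 1 mouse per genotype, none of these differences was tested. Sult2a1, Sult2a2 and Sult2a5 were lower than in WT liver after loss of either gene alone, but higher in DKO liver than in each single knockout. This holds for loss of Cyp27a1 without and with Cyp3a, and for loss of Cyp3a without and with Cyp27a1. The 2 log2 folds of a gene differed by 12.15 for Sult2a1, 11.53 for Sult2a2 and 8.59 for Sult2a5, and the value is the same for either loss because it is built from the same 4 libraries. With pseudocounts of 0.1 and 2 CPM in place of 0.5 it was 14.86 and 9.40 for Sult2a1, 13.68 and 8.95 for Sult2a2, and 11.43 and 6.22 for Sult2a5, settings chosen after seeing the data. The single-knockout side rests on the 119, 100 and 22 WT counts of the 3 genes, and whether these came from the WT liver was not tested. Sult2a5 was called lower in neither Cyp27a1 KO liver nor Cyp3a KO liver against WT (log2 folds -0.65 and -0.90). All 3 genes passed the filter only through the DKO, so the higher DKO side was bound to follow. For Sult2a8, loss of Cyp3a came with a higher level when Cyp27a1 was present and a lower level when it was not, and the log2 folds differed by -2.16.

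Counts also appeared in annotated noncoding copies outside the 7 members: Sult2a-ps1 had 42.7 and Sult2a-ps2 had 23.2 counts in DKO liver, above the limit of 3 counts, and 0 in the other libraries, WT included.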

How the results depend on the processing

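The log2 fold of the family sum kept its direction in all 5 comparisons under each scaling and pseudocount tried. Against WT, deposited TPM gave 3.51 in Cyp27a1 KO liver (main value 3.13), 3.75 in Cyp3a KO liver (3.46) and 8.40 in DKO liver (7.999), and a pseudocount of 2 CPM gave 2.86 in Cyp27a1 KO liver, 3.18 in Cyp3a KO liver and 7.69 in DKO liver. Library-total scaling gave 8.19 in DKO liver against WT, 4.66 for the DKO against the Cyp3a KO (4.54) and 4.98 for the DKO against the Cyp27a1 KO (4.87), and deposited TPM gave 4.65 in DKO liver against the Cyp3a KO. TPM recentred on the median gene, chosen after seeing the data, gave 3.33 in Cyp27a1 KO liver and 3.66 in Cyp3a KO liver against WT, 4.42 in DKO liver against the Cyp3a KO and 4.74 against the Cyp27a1 KO; the median gene shifted by 0.09 to 0.33 on the log2 scale in TPM. Changing the sum, by choices added after the data were seen, mattered more. Without Sult2a7 it turned to -1.97 in Cyp27a1 KO liver and -3.06 in Cyp3a KO liver against WT, and was 11.06 in DKO liver against the Cyp3a KO and 9.97 against the Cyp27a1 KO. With Sult2a8 it was -0.10 in Cyp27a1 KO liver, 0.76 in Cyp3a KO liver and 1.77 in DKO liver against WT, and 1.01 and 1.87 in DKO liver against the Cyp3a KO and the Cyp27a1 KO. The same sum in TPM gave 0.33, 0.99 and 3.23 in the 3 knockouts in that order, and 2.25 and 2.90 in DKO liver against the Cyp3a KO and the Cyp27a1 KO.

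The members called higher stayed within 1.5 times their number under every alternative run. Without the filter, 6 of 7 were higher in DKO liver against WT, against the Cyp3a KO and against the Cyp27a1 KO. The shares of all genes were then 2.56%, 1.81% and 1.33% in that order. A 4-fold rule left 3 members higher in DKO liver against the Cyp3a KO (0.920% of all genes) and 3 against the Cyp27a1 KO (0.775%). Members called lower (2 in each single knockout against WT) depended on the pseudocount and the rule: with 2 CPM, 0 were lower in Cyp27a1 KO liver and 1 in Cyp3a KO liver against WT (0.818% and 1.12% of all genes), and with 0.1 CPM, 3 in each (1.81% and 2.28%). A 4-fold rule left 0 in Cyp27a1 KO liver (0.196%), and TPM gave 3 in Cyp3a KO liver (1.60%). Against WT the DKO had 705 genes higher and 472 lower, but 975 and 356 under library-total scaling and 1280 and 268 in TPM. Of 200 values of single genes under alternatives, 100 lay outside the counting interval of the main value on the same scale. Depth limits Sult2a3, Sult2a4, Sult2a6 and the single-knockout values of Sult2a1, Sult2a2 and Sult2a5, which rest on 1 to 22 counts. No paired analysis was possible because each genotype had 1 mouse, and for the same reason no library could be left out.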
